A study of Mus musculus with 8 samples.

Results

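Very deep cytosines are the CpG cytosines that reduced representation bisulfite sequencing (RRBS) read far more often than the rest of the genome. They were selected on coverage alone: a median of at least 300 reads over the 8 samples, on chromosomes 1 to 19, outside the copy of the 45S ribosomal RNA gene that the reference carries on chromosome 17. Of 2087852 cytosines on these chromosomes, 3496 met the rule (0.167%), and cytosines within 1 kb of each other were joined into 1616 loci. Of these loci, 832 held 1 member cytosine, 400 held 2, and 384 held at least 3, up to 41 in 1 locus. The cells were type A spermatogonia of C3H/HeN mice at postnatal day 6, isolated with antibody to CD49f/Itga6 on magnetic beads. The males were the F1 offspring of dams given sodium arsenite in tap water at 85 ppm between gestational days 8 and 18 (arsenic group) or tap water with nothing added (control group). Both groups had 4 samples, and for every sample 8 testes of 4 males were pooled. Litters behind a pool are not given in the labels, so the permutation p-values below measure the spread between these pools. The likelihood-ratio q-values rest on summed reads and do not measure that spread.

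A methylation level here is the percent of reads at a cytosine that stayed C after bisulfite conversion, and coverage is the number of those reads. RRBS cuts DNA with MspI at CCGG and sequences the ends of short fragments, so each CpG near such a site is read again and again from many cells. A read count far above the usual one is familiar from repeated DNA, because reads from copies that the reference does not hold are placed on those that it does. The best known sequence of this kind in the mouse is satellite DNA: the minor satellite forms the centromere and carries the CENP-B box, the binding site of centromere protein B, and the major satellite forms the flanking heterochromatin. Both are heavily methylated in somatic cells, as are most retrotransposons, the mobile elements that germ cells silence by DNA methylation. Ribosomal RNA genes lie in tandem arrays, of which some copies are methylated and others are not.

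Coverage summed over the cytosines of the whole table lay between 96428439 and 133406260 per sample. A read is counted there at each CpG it spans, and shares of reads below are shares of such sums. The median coverage of an autosomal cytosine outside the ribosomal copy was 37.0 reads. At the threshold, the members just inside lay at 300 reads, with levels of 85.4%, 85.2% and 91.8%, and the cytosines just outside lay at 299.5 reads, with levels of 3.74%, 78.0% and 93.2%. As a check of the cell type, promoters of germline genes (among them Dazl and Ddx4) and of imprinted genes methylated on the maternal allele (among them Snrpn and Peg10) were read. Both kinds are known as unmethylated in male germ cells. The 11 covered of 12 germline promoters averaged 82.4%, and the 9 covered of 12 imprinted promoters averaged 57.2%, levels that go against a pure germ cell population. The part of other testis cells in the results below was not tested.

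The 4 loci shown first held an alike sequence of centromeric type, and 3 of them were the place of most very deep reads. Each line is a 101-base stretch of the reference (mm10) around the deepest cytosine of the locus, and the 17 bases in capitals match the CENP-B box pattern NTTCGNNNNANNCGGGN, which holds 2 CGs.
chr2:98662627-98662727, minus strand: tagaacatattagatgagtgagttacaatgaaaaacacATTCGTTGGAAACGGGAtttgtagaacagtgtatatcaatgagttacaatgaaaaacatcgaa
chr2:98665133-98665233, plus strand: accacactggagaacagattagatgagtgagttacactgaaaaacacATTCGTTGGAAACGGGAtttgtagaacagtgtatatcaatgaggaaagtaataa
chr2:98666335-98666435, minus strand: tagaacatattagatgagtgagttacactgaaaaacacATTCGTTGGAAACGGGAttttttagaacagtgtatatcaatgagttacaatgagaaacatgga
chr6:103649127-103649227, minus strand: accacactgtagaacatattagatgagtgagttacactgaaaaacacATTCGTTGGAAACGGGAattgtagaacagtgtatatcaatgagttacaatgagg

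The next lines show the other kinds of very deep sequence, with the CG of the deepest cytosine in capitals. They are the 2 loci whose sequence is ribosomal, the deepest interspersed repeat, and the locus with 1 copy in the reference and the highest median coverage (1556 reads). Then come the promoter with the deepest cytosine (of Sfi1) and the 2 cytosines that passed the test of a group difference. The Sfi1 window also had 1 copy, with a median coverage of 860 reads over the locus and 2502.5 reads at its deepest cytosine.
chr6:3201507-3201607, plus strand: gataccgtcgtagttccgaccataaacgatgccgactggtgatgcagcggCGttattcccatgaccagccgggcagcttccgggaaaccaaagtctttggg
chr16:57391349-57391449, plus strand: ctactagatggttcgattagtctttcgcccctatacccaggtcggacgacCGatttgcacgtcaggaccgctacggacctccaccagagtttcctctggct
chr1:59347424-59347524, plus strand: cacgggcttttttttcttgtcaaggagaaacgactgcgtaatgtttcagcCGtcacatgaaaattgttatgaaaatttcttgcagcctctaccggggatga
chr13:119616155-119616255, minus strand: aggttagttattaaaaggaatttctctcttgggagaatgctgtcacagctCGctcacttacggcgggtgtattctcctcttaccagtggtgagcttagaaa
chr11:3193499-3193599, minus strand: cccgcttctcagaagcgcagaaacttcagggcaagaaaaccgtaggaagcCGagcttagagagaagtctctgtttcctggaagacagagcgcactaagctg
chr7:28491236-28491336, minus strand: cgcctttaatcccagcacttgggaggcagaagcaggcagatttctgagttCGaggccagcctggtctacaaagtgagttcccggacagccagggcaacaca
chr7:127216003-127216103, plus strand: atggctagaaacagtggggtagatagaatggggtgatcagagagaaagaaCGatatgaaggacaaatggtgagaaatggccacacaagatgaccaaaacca

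Depth alone did not mark multi-copy sequence. The 101-base window around the deepest cytosine of each locus was searched against the reference, counting places with at least 90% identity. Of the 1616 loci, 1134 had 1 copy, that is the locus itself (70.2%), 196 had 2 to 100 copies, and 286 had over 100. Among 2084 other autosomal cytosines, taken as every 1000th of the table, 1759 had 1 copy (84.4%). These are single cytosines and not loci, so places dense in CpGs weigh more among them, and both shares are of unlike units. The share with 1 copy was lower at greater depth: it was 74.9% of the 1496 loci whose deepest cytosine had at least 300 and under 500 reads, 11.3% of the 97 loci with at least 500 and under 1000 reads, and 8.70% of the 23 loci with 1000 reads or more. Most of the loci at the lower end of the coverage range can therefore be called very deep but not, from the reference, multi-copy. A copy missing from the reference, or present in C3H/HeN and not in the reference strain, would not have been counted.

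**Figure D1:**
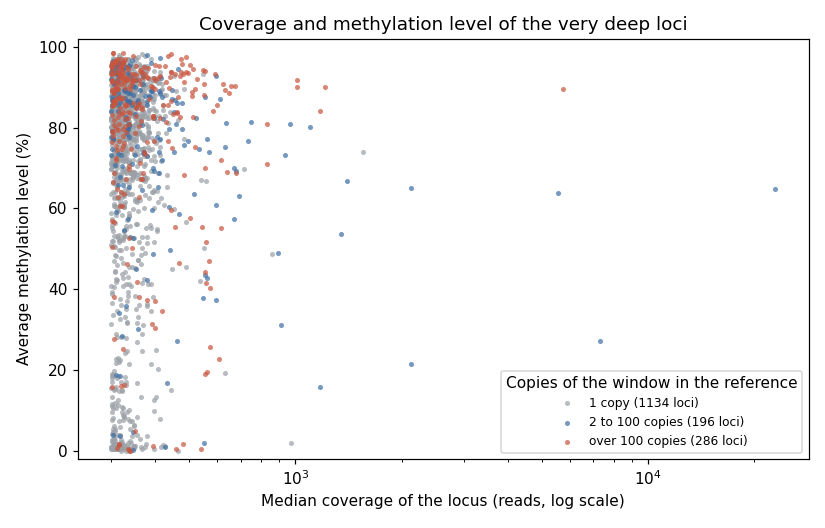
Each point is 1 of the 1616 very deep loci, with its median coverage in reads (log scale) against its average methylation level over the 8 samples; colours give the number of copies of its window in the reference. The 1134 single-copy loci crowd near the threshold of 300 reads at all levels, and the loci past 1000 reads mostly have more than 1 copy.

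Most single-copy loci lay on MspI fragments of similar length, and so did most loci with more copies. Between neighbouring CCGG sites of the reference, the fragment had a median length of 173 bases (quartiles 153 and 202) at the single-copy loci, against 225 bases (155 and 332) at the other single-copy cytosines. A length of at least 120 and under 220 bases held for 937 of 1134 single-copy loci (82.6%) and for 38.5% of the other single-copy cytosines. Fragments under 60 bases carried 2 of these loci and fragments of at least 60 and under 120 bases carried 7. The range of 120 up to 220 bases also held for 66.3% of the loci with 2 to 100 copies and 72.0% of those with over 100. Among other cytosines of these 2 classes it held for 44.2% and 44.9%. Coverage of the other single-copy cytosines moved with fragment length in the same range: their median was 42.0 and 44.2 reads in the lower and upper part of that range, against 29.0 reads from 60 up to 120 bases and 31.5 reads at 320 bases or more. Which part of the depth the fragment length accounts for was not tested. The single-copy loci also had a lower G+C content, with a median of 43.5% against 52.5% over 301 bases, and fewer promoters, 3.17% against 16.1%. Each locus counts once here, while the others are single cytosines, among which places dense in CpGs weigh more. In introns and between genes alone, the median G+C content was 43.2% against 50.2%.

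**Figure D2:**
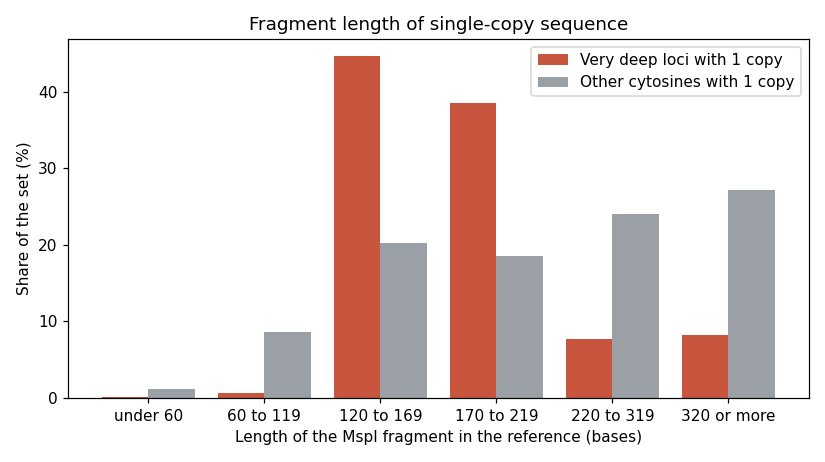
Bars give the share (%) of single-copy very deep loci and of other single-copy cytosines in each class of MspI fragment length (bases, from the reference). The loci pile up between 120 and 220 bases, where the other cytosines are spread over all classes from 60 bases upward.

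The 3 loci on chromosome 2 held most of the very deep reads. They lay at chr2:98662265-98662795 with 20 members, chr2:98665063-98665193 with 8 and chr2:98666262-98667207 with 22, all intergenic, the nearest gene being Lrrc4c about 1 Mb away. Together these 50 cytosines took 74.6% of all reads on very deep cytosines. As a share of all autosomal reads they took 4.26%, 4.10%, 4.31% and 3.81% in control samples 1 to 4 and 5.58%, 4.08%, 3.63% and 3.88% in arsenic samples 1 to 4. Arsenic sample 1 stood above all others, and the remaining 3 arsenic samples lay near or below the controls. The share of all very deep cytosines was 5.55 ± 0.283% in the control group and 5.72 ± 0.999% in the arsenic group (mean ± SD, n = 4 each). Without the 3 loci it was 1.43 ± 0.0643% and 1.42 ± 0.128%. Coverage chose the members, so these shares are a description.

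Part of each chromosome 2 locus repeated itself in the reference. Stretches of 80 bases matched the sequence 120 bases further on with up to 98.8% identity at the first locus and 96.2% at the second, and 121 bases further on with 97.5% identity at the third. Another locus, chr6:103649056-103649288 in an intron of Chl1 (a neural cell adhesion gene), repeated at 120 bases with 86.2% identity and matched the chromosome 2 windows over 90 to 92 bases at 96.7% to 97.8%. Repeats of this length with a CENP-B box are what the minor satellite is known for. The outer part of 2 of the loci was different: 19 of the 50 cytosines lay in sequence that aligned, at 95.9% to 99% identity, to the array at the start of chromosome 9, whose median repeat length was 234 bases, as in the major satellite. These 19 cytosines had a median coverage of 675 reads, and the other 31 had a median of 16208.5 reads and reached 692456.5 reads.

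The CENP-B box pattern occurred 555 times on chromosomes 1 to 19 of the reference, counting both strands. The table held 338 cytosines of such matches, of which 23 were very deep, all in the 4 loci just named, while the others had a median coverage of 33.0 reads and a median level of 73.0%. No window of the 2084 other cytosines held the pattern. A match is a likeness of letters and says nothing of binding.

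Inside the box, the CGs differed widely in level while the samples hardly differed. The deepest cytosine of all, the C of the second CG at chr2:98666385 on the motif strand, had levels of 6.20%, 5.45%, 6.16% and 5.97% in controls 1 to 4 and 6.10%, 6.55%, 5.94% and 5.69% in arsenic samples 1 to 4. The first CG of the same box, 9 bases away, had 77.3%, 77.0%, 78.4% and 78.3% in the controls and 79.1%, 78.4%, 78.4% and 78.4% in the arsenic samples. So neighbouring CGs with nearly the same coverage lay far apart, in every sample alike. At the first locus the second CG was again low in 1 box, at 1.68% over 283899 reads (chr2:98662557), and in the next box, 120 bases away, it was 73.2% over 561447 reads (chr2:98662677). At chr2:98665192 the second CG stood between these, at 37.3%. The locus on chromosome 6 had 23.1% at its second CG and 62.1% at its first.

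The other strand of the same CGs gave other values. At chr2:98662556, opposite the C with 1.68%, the level was 72.8% over 890 reads. Of the 12 CGs of the box with a very deep cytosine, 11 were very deep on both strands, and their strands differed by 2.90 to 71.1 points, the motif strand being lower at 7 of them. Across all members, 103 CGs were very deep on both strands, with a median gap of 4.92 points. Gaps over 20 points occurred at 13 of these, 9 of which were among the 16 in the chromosome 2 loci. Coverage of the strands differed by more than 4 times at 14 CGs, all in these 3 loci. A T in a read can come from an unmethylated C or from a copy of the repeat with another base there, and bisulfite reads of one strand cannot tell these apart, so levels at these loci are averages over an unknown set of copies.

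**Figure D3:**
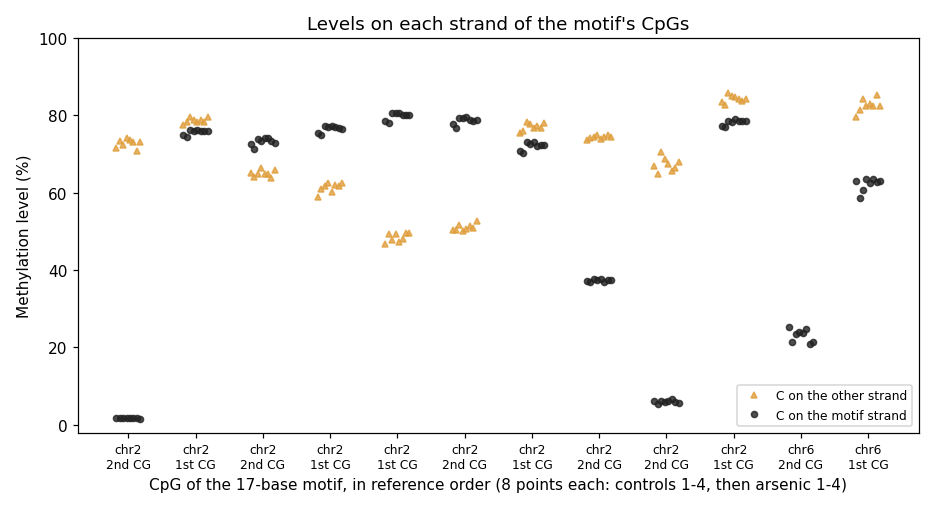
Methylation level (%) of the very deep cytosines in the 17-base box pattern, by CpG in reference order, with 8 points per cytosine (controls 1 to 4, then arsenic samples 1 to 4); circles are the C on the motif strand and triangles the C on the other strand. The 8 samples sit close together at every cytosine, while second CGs on the motif strand range from 1.68% to 78.6%.

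Group differences at the satellite loci were small. The locus at chr2:98665063-98665193 averaged 63.8%, 63.9%, 65.3% and 65.2% in the controls and 64.9%, 64.8%, 65.0% and 65.4% in the arsenic samples. The groups overlapped, with a difference of 0.468 points (exact permutation test, two-sided p = 0.371). At chr2:98662265-98662795 the difference was 0.500 points (exact permutation test, p = 0.371), at chr2:98666262-98667207 it was 0.635 points (p = 0.486, exact permutation test), and at the Chl1 intron it was 0.753 points (exact permutation p = 0.171). With reads summed over the members, the last 2 were 0.166 and 0.105 points. Without control 2, the difference at chr2:98666262-98667207 was 0.0699 points. Among the 16 chromosome 2 cytosines with at least 10000 reads, the arsenic mean was the higher one at 15, no cytosine separated the groups, and the widest range over the 8 samples was 3.05 points. Controls 1 and 2 were the lowest of the 8 samples at 10 of the 16, and these cytosines share their reads and their copies, so they are not 16 separate observations.

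The label of the set leaves out ribosomal DNA, but 2 of the 10 deepest loci were ribosomal by sequence. The locus at chr6:3201422-3201557 (15 members, intergenic) was 94.1% identical over 101 bases to the 45S copy on chromosome 17. The locus at chr16:57391276-57391517, in introns of Cmss1 and Filip1l, had the most members of all (41) and reads as 28S ribosomal RNA in reverse; the part of the 45S gene that chromosome 17 carries did not align with it. Its window had 14 copies on 11 sequences of the reference. Its levels were 25.8%, 25.5%, 20.6% and 19.4% in controls 1 to 4 and 23.2%, 20.1%, 18.5% and 19.7% in arsenic samples 1 to 4. The chromosome 6 locus had 31.7%, 30.1%, 27.5% and 24.9% in the controls and 30.7%, 25.6%, 22.6% and 24.7% in the arsenic samples.

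At both loci controls 1 and 2 and arsenic sample 1 were the highest samples and arsenic sample 3 the lowest. The arsenic group was lower by 2.42 points on chromosome 16 (22.8 ± 3.29% against 20.4 ± 2.01%, SD, n = 4 each, exact permutation p = 0.229). On chromosome 6 it was lower by 2.64 points (28.5 ± 3.01% against 25.9 ± 3.41%, SD, n = 4 each, exact permutation p = 0.286). The groups overlapped at both. The chromosome 17 copy itself, read over 864 cytosines, had 19.9% to 23.1% in the controls and 18.4% to 19.4% in the arsenic samples. There the groups did not overlap, with means of 21.4 ± 1.46% and 19 ± 0.453% (SD, n = 4 each) and a difference of -2.36 points. Members of the loci on chromosomes 6 and 16 were read 1159 to 9368 times in a sample. The part of counting error, PCR copies and placement of reads in the spread between samples was not tested.

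RNA genes of other kinds were also among the loci with most members. The locus at chr8:123621955-123622242 had 37 members in the promoter of n-R5s149, a 5S ribosomal RNA gene of the tandem cluster on chromosome 8. It averaged 34.2% to 37.3% in the controls and 33.6% to 36.9% in the arsenic samples, and the difference of -0.190 points was within the spread (exact permutation p = 0.800). The locus at chr1:171065949-171066530 had 24 members near n-TLcag6, a leucine tRNA gene. Its controls had 27.2%, 25.2%, 30.6% and 27.5% and its arsenic samples 28.5%, 29.5%, 28.8% and 29.2%, which overlapped (difference 1.36 points, exact permutation p = 0.314). Without control 3 that difference was 2.36 points (exact permutation p = 0.0286), and without control 2 it was 0.564 points. Not all very deep loci of the 5S cluster lay at a low level. The 4 others there, each with 51 copies in the reference, averaged 79.4% (promoter of n-R5s121), 76.7% (promoter of n-R5s143), 77.7% and 74.8%, while the window at n-R5s149 had 3 copies. These 4 were chosen after their levels were seen.

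Of the 286 loci with over 100 copies, 96.9% had their deepest cytosine in soft-masked sequence, which in the mouse is mostly interspersed repeats. The third deepest locus, chr1:59347232-59347474 in an intron of Cdk15 (a cyclin-dependent kinase gene), had 1541 copies on the reference, all 8 members between 79.2% and 95.3%, and a median coverage of 5741.5 reads. It averaged 90%, 89.7%, 89.4% and 89.2% in the controls and 89.3%, 89.6%, 89.2% and 89.7% in the arsenic samples. The SDs were 0.366 and 0.203 points, with a difference of -0.122 points (exact permutation p = 0.6). A locus at chr10:7414224-7414465 with 1656 copies was alike in level, 90.1 ± 0.418% against 90.2 ± 0.670% (SD, n = 4 each, exact permutation p = 0.914).

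Grouping the windows by likeness (at least 80% identity over 60 bases) gave 56 families of at least 2 loci, with 351 loci in all, while 1265 loci had no partner. The largest family had 69 loci on all 19 chromosomes, a median of 48402 copies and levels from 0% to 93.5%. The next had 35 loci with a median level of 90.7%, 29 loci with 91.7%, and 19 loci with 94.5%. Of the 11 families with at least 8 loci, the lowest median level after that of the largest was 72.7%, and a family of 15 loci also ranged widely, from 0.799% to 96.2%. An open reading frame of the LINE-1 type (at least 900 codons, in masked sequence within 8 kb) lay near 25 of the 1616 loci, against 19 of the 2084 other cytosines. Loci and single cytosines are unlike units, so these counts are a description. LINE-1 is one of the active classes of mouse retrotransposon. These 25 loci, 10 of them upstream of the frame, had a median level of 89.9%, with single loci from 0.369% to 95.2%. Their median difference between the groups was -0.0567 points.

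Not every copy in the reference kept the CG. For 376 loci with at least 10 aligned copies, the share of copies with a CG at the site was set beside the level. The 79 loci where under 10% of copies kept it had a median level of 79.3%, the 71 loci with 10% to 50% had 82.4%, the 188 with 50% to 90% had 89.3% and the 38 with 90% or more had 88.1%. Every class reached from 13.3% or less to 97.0% or more.

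Some very deep loci lay in stretches where all coverage was raised. Of 23525 bins of 100 kb with cytosines, 1501 held a locus and 13 held at least 3. On chromosome 17, the 978 cytosines from 30.5 to 30.9 Mb had a median coverage of 71.2 reads, against 36.5 reads both from 30.0 to 30.5 Mb and from 30.9 to 31.1 Mb. The stretch held 26 members in 12 loci, 10 of them with 1 copy in the reference, and took in Dnah8 (an axonemal dynein heavy chain of the sperm tail) and Glo1 (glyoxalase 1), a gene known to differ in copy number among inbred mouse strains. The raised coverage was seen in every sample, with sample medians from 55.0 to 91.0 reads. A locus in an exon of Dnah8, chr17:30748689-30748777 with 7 members, was at 94.5 ± 0.838% in the controls and 94.4 ± 1.42% in the arsenic samples (SD, n = 4 each, exact permutation p = 0.914).

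Other stretches with several loci differed in this. The 12 loci at 19.7 to 20.7 Mb of chromosome 8 and the 9 at 14.9 to 15.8 Mb of chromosome 5 all had a further copy with at least 98% identity, and the median coverage of all cytosines there was 43.2 and 105 reads. On chromosome 5 the loci lay among Speer genes, a family expressed in the testis. The pair from this stretch among the 10 deepest loci, chr5:15007482-15007506 and chr5:14991068-14991154, had differences of -1.19 and -1.11 points, both within the spread of the samples (exact permutation p = 0.400 and 0.371). Without control 2 the latter was -1.86 points (exact permutation p = 0.0286), and without control 3 it was -0.282 points. On chromosome 4, the 267 cytosines from 60.1 to 61.6 Mb had a median of 112 reads, and 3 of the 5 loci there had a close copy. On chromosome 6, 112 cytosines at 47.6 to 47.7 Mb had a median of 124 reads, and both loci there had 1 copy in the reference.

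The average level of the very deep loci was 71.1%, 71.1%, 71.2% and 70.9% in controls 1 to 4 and 71.2%, 70.8%, 70.6% and 70.7% in arsenic samples 1 to 4. Arsenic sample 1 lay among the controls and the other 3 below them, so the groups overlapped. The means were 71.1 ± 0.119% and 70.8 ± 0.241% (SD, n = 4 each), a difference of -0.252 points. Other 1 kb clusters of autosomal cytosines averaged 69.4% and 69.0%, a difference of -0.432 points, so the shift at very deep loci was of the same sign as that of the rest. By number of copies, the difference was -0.271 points for 1 copy, -0.161 for 2 to 100 and -0.237 for over 100. The levels were 68.8%, 74.3% and 77.9% in the control group in the same order.

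Levels of the loci were spread as those of other clusters were. Under 5% lay 97 loci (6%, against 6.24% of other clusters), and 392 lay at 90% or more (24.3% against 20.3%). Among the 97 unmethylated loci, 22 were in promoters, as those of Fosb (0.522%, an AP-1 transcription factor), Med13 (0.573%, a Mediator subunit) and Ebf1 (0.876%, a transcription factor of B cells), and 80 had 1 copy. Of the 1256 loci at 60% or more, 12 were in promoters. In all, 125 loci overlapped an exon or a promoter. The promoter with most reads was that of Sfi1, a centrosome gene, at chr11:3193483-3193628, with 13 members between 10.6% and 81.1%. It averaged 47.4% to 50.5% in the controls and 47.2% to 49.3% in the arsenic samples (difference -0.883 points, exact permutation p = 0.343).

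A locus at the promoter of the pseudogene 2610005L07Rik, chr8:20424798-20425165, had 18.5 ± 2.59% and 19 ± 2.87% (SD, n = 4 each, exact permutation p = 0.771). The promoter of Ankrd11, a chromatin regulator, at chr8:123043035-123043266, had 32.2 ± 3.34% and 30.1 ± 1.84% (SD, n = 4 each, exact permutation p = 0.314). None of the 5 loci with most members in an exon or promoter separated the groups.

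Few members passed the test for single cytosines. A differentially methylated cytosine (DMC) is one with a q of at most 0.01 and a group difference of at least 10 points in a likelihood-ratio test on summed reads. Over the 2130064 cytosines tested, 0.323% were hypoDMCs, lower in the arsenic group, and 0.228% were hyperDMCs. Of the 3496 members, 0 were hypoDMCs and 2 were hyperDMCs, and with any 1 sample left out the sum of both ran from 1 to 9. Counting error was smaller at the members than at other cytosines (medians of 2.47 and 7.34 points at levels of 20% to 80%), and depth chose the members. The lower DMC share is therefore not read as fewer group differences there. A q of at most 0.01 whatever the difference was reached by 0.825% of all cytosines and by 130 members (3.72%), 88 lower and 42 higher in the arsenic group. Of these 130, 128 differed by less than 10 points, with a median of 3.86 points. A test that counts reads passes smaller differences at deeper cytosines, and the part of depth in this share was not tested.

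The test on summed reads does not use the spread between samples, and tests that do called no member. With the variance scaled for overdispersion (F test) and with limma on log2 ratios, 0 members and 0 of all cytosines were DMCs. At an unadjusted p under 0.05, the F test called 139 members (3.98%, against 3.87% of all cytosines), and limma called 44 (1.26%, against 5.11%). As run here, limma draws each variance toward a value shared by all cytosines, most of them less deep. Its lower share is therefore not read as fewer differences at the members. For members at 20% to 80%, the median counting error was 2.47 points and the median SD of the controls 3.49 points, against 7.34 and 9.07 points for other cytosines. Relative to counting error the variance was larger at the members, with a median ratio of observed to binomial variance of 2.65 against 1.77. In points the members had the smaller spread. Binomial variance is smaller at deeper cytosines, and depth chose the members, so the ratio does not show more variation between samples there.

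Both hyperDMCs lay on chromosome 7. At chr7:28491286, intergenic and 5655 bases from 1700028B04Rik, the controls had 73.6%, 76.8%, 73.8% and 67.0% and the arsenic samples 81.5%, 81.7%, 91.4% and 86.5%. The groups did not overlap (12.5 points between the means of the samples, likelihood-ratio q = 2.73e-07, limma adjusted p = 0.972). The window of this cytosine had 99508 copies in the reference, so the reads may come from many places. At chr7:127216053, in an intron of Septin1 (a filament-forming GTPase gene), the controls had 67.0%, 63.6%, 68.1% and 75.4% and the arsenic samples 83.6%, 75.6%, 79.9% and 75.1%. These overlapped between control 4 and arsenic sample 4 (likelihood-ratio q = 2.26e-05, limma adjusted p = 0.972), and this window had 1 copy. Each was the only member of its locus.

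At the level of loci, the groups did not overlap at 44 of 1616. The arsenic samples were all lower at 30 loci (1.86%, against 2.12% of 179459 other 1 kb clusters) and all higher at 14 (0.866%, against 1.05%). These shares were near those of the background. With 70 ways to divide 8 samples into 4 and 4, the smallest p of the exact permutation test is 0.0286, and after adjustment over all 181075 loci and clusters the smallest was 0.902, so no locus passed. The arsenic mean was the lower one at 895 loci (55.4%, against 56.5% of other clusters). Differences ran from -8.23 to 12.5 points, with a median of -0.221.

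**Figure D4:**
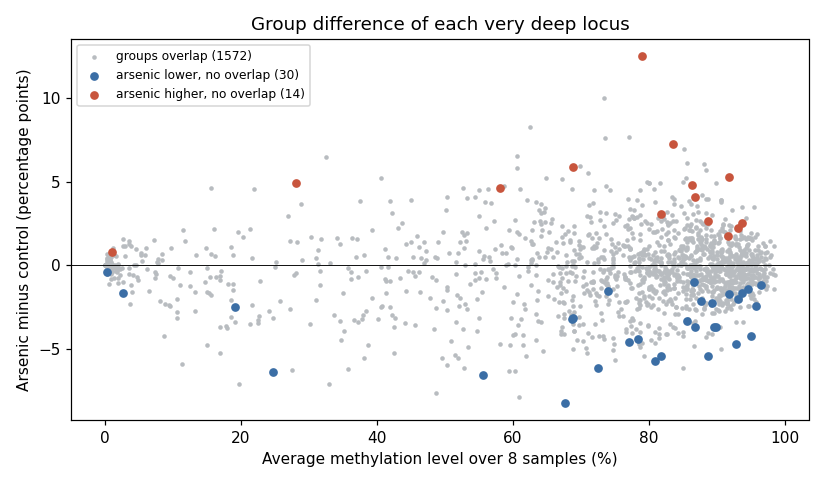
Each point is a very deep locus, with its average methylation level over the 8 samples (%) against the arsenic minus control difference (percentage points). Blue and red mark the 30 loci where all arsenic samples were lower and the 14 where all were higher. They lie among the other loci at most levels and are not gathered at 1 end.

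Of the 384 loci with at least 3 members, 9 were lower and 5 higher without overlap. Over other 1 kb clusters, whatever their number of cytosines, the shares were 2.12% and 1.05%, so these counts are not read as a result. The largest of each are given as values, since they were chosen by this difference. The largest decrease was at chr2:60406714-60406753, intergenic and with 1 copy, at 79.7%, 86.2%, 77.9% and 78.9% in the controls and 77.1%, 74.9%, 75.4% and 77.4% in the arsenic samples. Control 2 set much of that difference. The next was at chr9:25779206-25779234, an interspersed repeat with 923 copies, at 90.2% to 94.2% against 86.5% to 89.7%. At chr4:3070048-3070175, with 105 copies, the controls had 85.1% to 90.5% and the arsenic samples 83.4% to 85%. These lay at high levels and the groups were under 1 point apart at their nearest samples.

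The largest increase was at chr16:94011041-94011143, intergenic, in the lncRNA model 2410003I16Rik and 2204 bases from Cldn14, a tight junction gene. It had 22.9%, 25.9%, 28.1% and 25.8% in the controls and 30.0%, 33.4%, 29.3% and 29.9% in the arsenic samples. In an intron of Cdh13, a cadherin gene, chr8:118639150-118639186 had 81.7% to 86.1% against 86.7% to 90.6%. At chr3:144378013-144378087, in the lncRNA model Gm34434, the controls had 78.0% to 82.0% and the arsenic samples 82.3% to 85.6%. All 3 had 1 copy in the reference, and no member of any of the 6 loci was a DMC.

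Among the 10 deepest loci, which were chosen without regard to the groups, 1 separated them. The locus at chr13:119616133-119616258, 5674 bases from Tmem267, had 9 members, 1 copy in the reference and a median coverage of 1556 reads. Its controls had 74.9%, 74.3%, 75.1% and 74.7% and its arsenic samples 72.8%, 73.3%, 73.0% and 73.6%. The difference of -1.57 points was larger than the spread, with an SD of 0.345 points in each group (exact permutation p = 0.0286, the smallest the design allows, unadjusted, and 0.902 after adjustment over all loci and clusters). The other 9 overlapped.

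**Figure D5:**
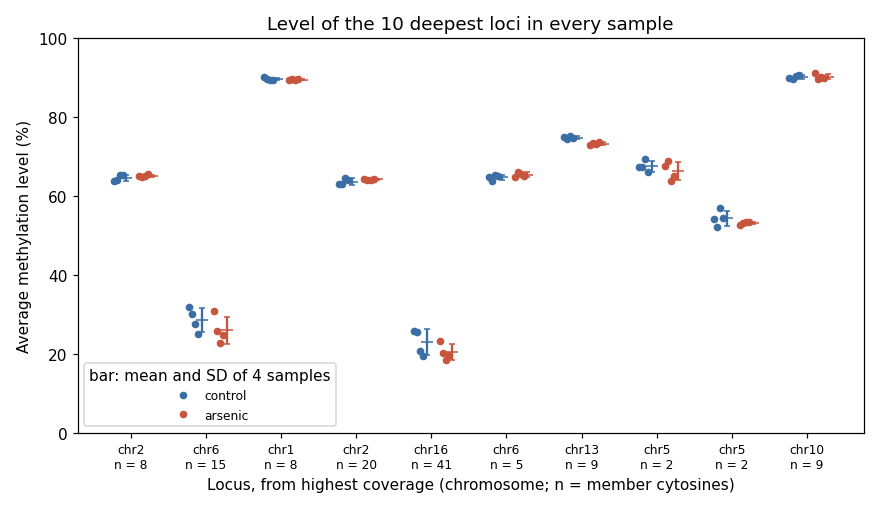
Average methylation level (%) of the 10 loci with the highest median coverage, from the deepest, in each control and arsenic sample (points) with the mean and SD of 4 samples (bars). The ribosomal loci on chromosomes 6 and 16 are the low ones with the widest spread, and on chromosome 13 all 4 arsenic samples lie below the 4 controls.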

How the data were processed

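RRBS libraries of 4 control and 4 arsenic samples were used. The deposited table gives, per the labels and file headers, coverage and counts of unconverted (C) and converted (T) reads for each CpG cytosine covered at least 10 times in all 8 samples; reads had been trimmed with Trim Galore 0.6.5, aligned to mm10 with Bismark 0.22.3 and tabulated with methylKit 1.22.0 by the authors, without joining strands. The members, lists and rules were chosen with earlier results of these data known.

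Levels were computed as C / coverage, and a locus level is the unweighted mean of its members. DMCs were called with a likelihood-ratio test on group sums over all cytosines (Benjamini-Hochberg q). Locus differences were tested with the two-sided exact permutation test. limma 3.58.1 (R 4.3.3) was run on log2 ratios with a pseudocount of 1. Scripts used Python 3.11.15. The likelihood-ratio, overdispersion F and limma tests were run on simulated counts drawn without variation between samples of a group. Those counts therefore do not show how the tests behave with the spread seen here. The exact permutation test was checked on made-up values only.

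The sequence of each window (101 bases) was searched with blastn 2.17.0 in 66 sequences of GRCm38 (at least 90% identity over 80% of the window). Curated RefSeq models gave regions; promoters ran from 1000 bases before to 100 after a start. Loci named were the 10 with highest coverage, the 5 with most members, the 3 largest decreases and increases among those with at least 3 members and no overlap, the 5 with most members in an exon or promoter, and the neighbours of the threshold; examples of promoters under 5%, the regions of raised coverage and the satellite and box descriptions were chosen after values were seen. Coverage summed over cytosines was 96428439 to 133406260 per sample, a read being counted at each CpG it spans. Error from counting alone covers neither PCR copies nor placement of reads among copies.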

Additional observations from a re-analysis of the deposited data

Results flagged for a closer look

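Of 56 groups of 4 samples examined for a sample that stands apart, 2 were marked, and chance marks about 1 in 20 groups (2.80 of 56). At the locus chr16:94011041-94011143, arsenic sample 2 had 33.4% and the other arsenic samples 29.3% to 30.0%. For the average over loci with 1 copy, control 4 had 68.6% and the other controls 68.9%, a gap of less than 1 point.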

How the results depend on the processing

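The number of members followed the threshold: 22904 cytosines had a median coverage of at least 200, 492 of at least 500 and 817 had 300 reads in every sample, while 10636 CpGs passed with both strands summed and 685 members remained without the 0.1% deepest of any sample. DMCs numbered 61 of 22904 at 200 reads and 7 of 10636 with strands summed. They numbered 0 at 500 reads, at 300 reads in every sample, with the overdispersion F test and with limma. Loci without overlap numbered 295 at 200 reads, 2 at 500, 5 at 300 in every sample, 176 with strands summed and 14 among loci with at least 3 members. The number of loci examined changed with these settings as well. Shares over other clusters were not computed for them, nor for the fits with 1 sample left out. The counts of loci without overlap are therefore not read as more or fewer group differences. The difference of the average level was -0.557 points at 500 reads, -0.118 points for loci with at least 3 members, and negative in all alternatives run. With 1 sample left out, DMCs ranged from 1 to 9 (1 without control 1 or arsenic sample 3, 4 without control 2 or arsenic sample 4, 5 without arsenic sample 2, 9 without control 3), loci without overlap from 81 to 97, which smaller groups make easier, the average difference from -0.365 to -0.187 points and the read share difference from -0.319 to 0.430 points, the lowest without arsenic sample 1, whose share was the highest.

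Same-numbered samples did not deviate together (correlations of 0.0359, -0.0228, 0.0319 and -0.00879), so a number is only a name. In a paired analysis with the replicate number as a block, limma called 0 DMCs, and the average difference was -0.252 points. All 4 same-numbered differences were of 1 sign at 197 of the 1616 loci. No share over other clusters is given beside that count, so it is not read as a result. Differences near 0 changed sign with 1 sample left out: from -0.261 to 0.0165 points at the Cdk15 locus, -0.240 to 0.290 at chr10:7414224, -0.761 to 0.521 at n-R5s149, -0.525 to 1.76 at 2610005L07Rik and -0.553 to 0.559 at Dnah8. Of loci that had missed 0.05, chr1:171065949 (2.36 points without control 3) and chr5:14991068 (-1.86 without control 2) passed it. Coverage-weighted, the Chl1 difference was 0.105 that of chr2:98666262 0.166 and that of n-R5s149 -0.362 points. At chr13:119616133 the range was -1.72 to -1.45. The 6 loci named for their differences passed 0.05 in some and missed it in 27 of these fits in all. Leaving out a sample cannot make separated groups overlap, but in smaller groups a further assignment can lift p past 0.05. At chr2:60406714 without arsenic sample 1 the difference was -4.75 points (exact permutation p = 0.0571). What else moved these p-values was not tested. Counting error was 2.47 points beside an SD of 3.49 points at members of 20% to 80%, and copies that the reference lacks limit what a level describes.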
